A study of Homo sapiens with 6 samples.

Results

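The CDK inhibitor genes are the 8 rows of the deposited table, of 23228 gene names in all, that carry the symbols CDKN1A, CDKN1B and CDKN1C (the CIP/KIP family), CDKN2A, CDKN2B, CDKN2C and CDKN2D (the INK4 family), and CDKN3. They were compared in SaOS-2 cells, an osteosarcoma line that the study describes as null for RB and p53, engineered with a Tet-inducible p21 vector. RNA was sequenced from 3 libraries of untreated cells (p21 OFF) and from 3 libraries of cells given 1 µg/ml doxycycline for 24 h (p21 ON). All 6 libraries carry the vector and none had the drug without it, so an effect of p21 and an effect of doxycycline cannot be told apart. The study's methods speak of biological replicates, but the labels do not say whether the libraries came from separate cultures, so the p-values measure the spread between these libraries, which may be technical.

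CIP/KIP proteins (p21, p27 and p57) bind cyclin-CDK complexes and block chiefly those of CDK2. INK4 proteins (p16, p15, p18 and p19) are built of ankyrin repeats, bind only CDK4 and CDK6, and keep cyclin D from joining them. RB and its relatives p107 and p130 are substrates of these kinases, and p16 is known to be abundant in cells that have lost RB. CDKN3, which shares the naming but not the structure, encodes a phosphatase that removes the activating phosphate of CDK2. CDKN2A also encodes ARF, a protein unrelated to p16 that uses another first exon, and the deposited value counts both transcripts together.

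Induction of p21 was accompanied by lower levels of most other CDK inhibitor transcripts. CDKN3 fell to 0.505 of its p21 OFF level, CDKN2D to 0.629 and CDKN2C to 0.706, while CDKN2A fell to 0.834 and CDKN1B to 0.839. CDKN2B did not pass the test, CDKN1C was too weakly expressed to be tested, and CDKN1A, the induced gene, was the only member called higher. Of the 7 members tested, 5 were thus called lower and 1 higher, where 12.7% of the 13255 genes tested were called lower, 10.5% higher and 23.2% in either direction. These calls are from limma on log2(normalized count + 1) at an adjusted p-value under 0.05 (Benjamini-Hochberg over all genes tested), and every log2 fold change below is on this scale. For all 7 members tested the libraries of the groups did not overlap, against 40.4% of all genes tested. For CDKN1A this follows from its induction, and the other 6 were lower with p21 ON. In RNA from whole cultures, fewer cells that hold a transcript and less transcript per cell cannot be told apart.

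**Figure D1:**
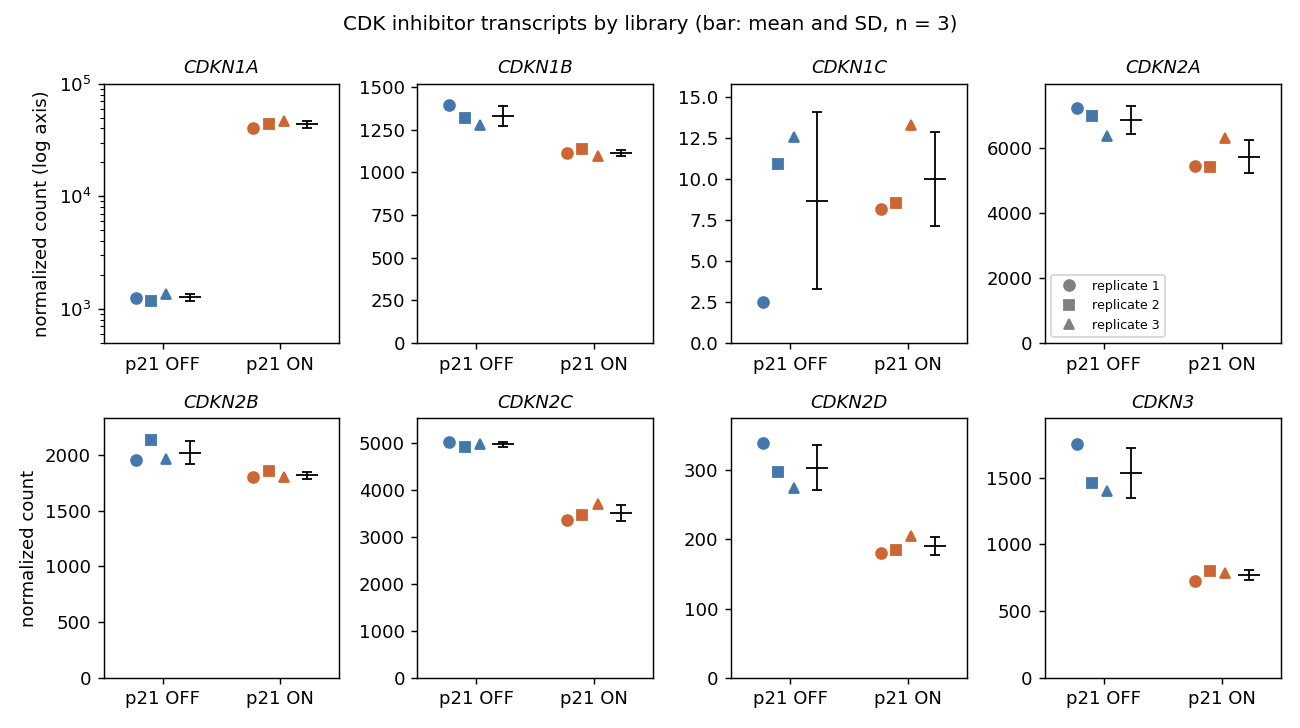
Normalized count of each CDK inhibitor gene in each library (1 panel a gene, blue p21 OFF, orange p21 ON, marker shape by replicate number, bar for the mean and SD of 3 libraries; the CDKN1A axis is logarithmic and the others start at 0). The p21 ON libraries lie above p21 OFF for CDKN1A and below it for every other gene but CDKN1C, where the groups overlap.

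The libraries held 12795490 to 21975045 reads on genes with p21 OFF and 12918390 to 16630552 with p21 ON. Over all genes, 1393 were called higher and 1681 lower, and scaling by library size alone gave 2034 and 1194. These counts were 695 and 887 without p21 ON replicate 1 and 739 and 1077 without p21 ON replicate 3, so the shares of all genes given here depend on those libraries. Among osteoblast markers, RUNX2, SP7, ALPL, COL1A1 and IBSP were expressed, whereas BGLAP was listed at 0 in every library and COL1A2 and SPP1 had means under 4. Among markers of other cell types, EPCAM and KRT18 of epithelia had p21 OFF means of 330.2 and 2066, and PECAM1 had 12.6, and CDH1, PTPRC and CDH5 had means under 8. RB1 reads were present in every library, with 555 ± 66.8 normalized counts (SD, n = 3) in p21 OFF and 654 ± 39.7 (SD, n = 3) in p21 ON, and a gene-level count does not show whether these transcripts encode the protein.

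The start regions of 4 members are shown because these genes fell with p21 ON and belong to the G2/M gene lists used by the study, and because the letters at their starts differ. CDKN1B and CDKN2D are in the high-stringency G2/M list, CDKN1B, CDKN2C, CDKN2D and CDKN3 are in the low-stringency G2/M list, no member is in a G1/S list, and CDKN1A is in the list of p53 targets. G2/M promoters are known for the cell cycle genes homology region (CHR), which MuvB complexes bind, and for CCAAT boxes, whereas G1/S promoters hold E2F sites. Windows from 250 bases before to 50 bases after a start site were taken from RefSeq (GRCh38.p14), which held 10 windows for 7 members and no entry for CDKN1C. The part before the start is printed, placed by an exact match to GRCh37, the build of hg19. Capitals mark motifs searched on both strands. For the CHR these were TTTGAA and its known variants, which are spelled TTCGAA in some promoters and spelled TTTAAA in others. For E2F they were TTCCCGC as the main form, with TTGGCGC as a further form, then TTCGCGC as another and lastly TTGCCGC as well. The CCAAT box was searched by its name.
CDKN3, chr14:54863475-54863724, plus strand: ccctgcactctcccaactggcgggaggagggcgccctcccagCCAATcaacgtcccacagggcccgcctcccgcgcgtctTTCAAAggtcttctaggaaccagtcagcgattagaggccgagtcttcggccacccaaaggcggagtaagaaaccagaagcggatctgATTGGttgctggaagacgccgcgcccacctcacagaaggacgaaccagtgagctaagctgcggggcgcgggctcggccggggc
CDKN1B, chr12:12870052-12870301, plus strand: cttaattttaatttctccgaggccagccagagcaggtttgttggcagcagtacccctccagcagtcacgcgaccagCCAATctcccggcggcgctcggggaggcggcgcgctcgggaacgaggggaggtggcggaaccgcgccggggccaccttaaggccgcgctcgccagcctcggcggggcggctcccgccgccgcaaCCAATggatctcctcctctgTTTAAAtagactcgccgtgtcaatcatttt
CDKN2C, second of 3 starts, chr1:51434128-51434377, plus strand: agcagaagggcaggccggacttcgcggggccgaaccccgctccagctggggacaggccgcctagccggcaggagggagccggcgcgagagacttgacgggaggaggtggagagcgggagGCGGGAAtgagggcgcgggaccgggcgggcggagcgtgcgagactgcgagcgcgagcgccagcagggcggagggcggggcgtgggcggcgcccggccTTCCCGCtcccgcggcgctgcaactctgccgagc
CDKN2D, chr19:10679656-10679905, minus strand: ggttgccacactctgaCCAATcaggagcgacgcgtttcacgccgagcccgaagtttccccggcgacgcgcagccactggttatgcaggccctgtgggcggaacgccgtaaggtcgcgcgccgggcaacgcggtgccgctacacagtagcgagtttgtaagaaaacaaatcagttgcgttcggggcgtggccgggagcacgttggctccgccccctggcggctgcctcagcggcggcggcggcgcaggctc

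With the start base counted as 0, the CHR letters of CDKN3 lay at -170 to -165 and those of CDKN1B at -30 to -25. The E2F letters of CDKN2C lay at -131 to -125 and at -34 to -28 of its second start. Its other starts are not printed. The first held none of the motifs, and the third held a CCAAT box but no CHR or E2F letters. Windows with CHR letters make up 25.1% of the 34943 RefSeq windows, those with E2F letters 12.9% and those with a CCAAT box 34.6%, and they were found in 2, 1 and 4 of the 10 member windows. No motif was found in the windows of CDKN1A, CDKN2A or CDKN2B. A match of these letters is a description of the window and not evidence that a factor binds there.

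**Figure D2:**
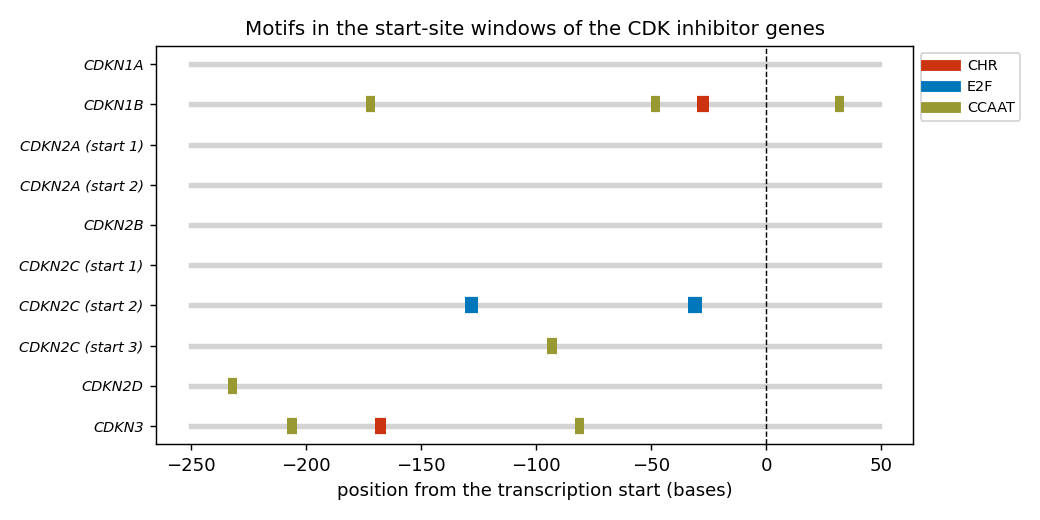
Position of CHR, E2F and CCAAT letters (colored blocks) in the 10 RefSeq start-site windows of 7 CDK inhibitor genes, in bases from the transcription start (dashed line). CDKN3 and CDKN1B hold CHR letters, the second start of CDKN2C holds E2F letters, and the windows of CDKN1A, CDKN2A and CDKN2B are empty.

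CDKN1A, which encodes p21, lies on the plus strand of chromosome 6 (bases 36644237 to 36655114 of GRCh37). The p21 OFF libraries held 1257, 1187 and 1355 normalized counts and the p21 ON libraries 40470.4, 43863 and 46739. Every p21 ON library was far above every p21 OFF library. This is a check of the induction, since reads of the vector and of the cells' own gene are counted together and were not separated. The share of all reads was 0.00726 to 0.00834% with p21 OFF and 0.259 to 0.296% with p21 ON, and its log2 fold change of 5.11 ranked 1 from the top among the 13255 genes tested. The vector-free value of the endogenous gene therefore remains unmeasured with p21 ON. In p21 OFF cells, the reads were already 1001 to 1833 per library, and whether they include transcripts from a leaky vector was not tested.

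CDKN1B, which encodes p27, lies on the plus strand of chromosome 12 (bases 12838432 to 12875303). Its p21 OFF libraries held 1393, 1316 and 1280.2 normalized counts and its p21 ON libraries 1114, 1134 and 1097. Every p21 ON library was below every p21 OFF library, and the gap between the groups (146 normalized counts) exceeded the SDs of 57.5 and 18.9. On the log2 scale it changed by -0.25 ± 0.06 (SE, limma adjusted p = 0.00814). The ratio of CDKN1A (vector reads included) to CDKN1B within a library was 0.901 to 1.06 with p21 OFF and 36.3 to 42.6 with p21 ON.

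CDKN1C, the imprinted gene of p57, lies on the minus strand of chromosome 11 (bases 2904443 to 2907005). It was close to undetected, with 2.51, 10.9 and 12.6 normalized counts with p21 OFF and 8.15, 8.53 and 13.3 with p21 ON, which stand for 2 to 17 reads a library. The groups overlapped. Its mean was under the least mean of 10 set for testing. A fit without that filter gave a log2 fold change of 0.38 with a 95% interval from -0.55 to 1.30 (limma adjusted p = 0.651), so neither a rise nor a fall within this interval was detectable at this depth.

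CDKN2A, the gene of p16 and ARF, lies on the minus strand of chromosome 9 (bases 21967751 to 21995300). The p21 OFF libraries held 7216, 6972 and 6381 normalized counts and the p21 ON libraries 5438, 5423 and 6315. The groups did not overlap, although p21 ON replicate 3 came within 65.8 normalized counts of p21 OFF replicate 3. On the log2 scale it changed by -0.26 ± 0.07 (SE, limma adjusted p = 0.0114). The call was lost without p21 ON replicate 1 (log2 fold change -0.23, adjusted p = 0.0837) and without p21 ON replicate 2 (-0.22, adjusted p = 0.0602).

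CDKN2B, which encodes p15, lies next to CDKN2A on the same strand of chromosome 9 (bases 22002902 to 22009304). It had 1957, 2140.3 and 1965 normalized counts with p21 OFF and 1801, 1856 and 1802 with p21 ON. The p21 ON libraries were again all lower, and the log2 fold change was -0.15, with a 95% interval from -0.28 to -0.02 (limma, unadjusted p = 0.0243 and adjusted p = 0.0827). The adjusted p-value misses the threshold, which does not show that CDKN2B was unaltered, and without p21 OFF replicate 1 it was 0.0278. The ratio of CDKN2A to CDKN2B was 3.25 to 3.69 with p21 OFF and 2.92 to 3.51 with p21 ON, and the groups overlapped (exact two-sided permutation test, p = 0.4; 3 libraries against 3 allow no less than 0.1), so a difference between these neighbors in their response was not detected. Both genes share 30 stretches of 51 bases, the length of the reads, which make up 3.23% of those of the canonical CDKN2A transcript and 0.789% of those of CDKN2B, and reads from there cannot be assigned to either.

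CDKN2C, which encodes p18, lies on the plus strand of chromosome 1 (bases 51426417 to 51440306). It had 5039, 4929.8 and 4984 normalized counts with p21 OFF, the tightest group of any member, with an SD of 1.09% of the mean. The p21 ON libraries held 3370.2, 3479.9 and 3707. The groups stood 1223 normalized counts apart, and on the log2 scale the change was -0.50 ± 0.06 (SE, limma adjusted p = 5.42e-06). A total of 617 exonic bases of CDKN2C overlap an unnamed gene on the opposite strand, and the strand setting of the counting is not given in the sources used here.

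CDKN2D, which encodes p19, lies on the minus strand of chromosome 19 (bases 10677136 to 10679735). It had 339, 298 and 275 normalized counts with p21 OFF and 180.4, 185 and 205 with p21 ON. All p21 ON libraries were lower, and p21 OFF replicate 1 was the highest. On the log2 scale it changed by -0.67 ± 0.10 (SE, limma adjusted p = 0.000132), the largest fall in the INK4 family. Its interval, from -0.88 to -0.46, overlapped that of CDKN2C, from -0.63 to -0.38. The ratio of CDKN2C to CDKN2D was 14.9 to 18.1 with p21 OFF and 18.1 to 18.8 with p21 ON, and the groups overlapped. An exact two-sided permutation test gave p = 0.2, where 0.1 is the least possible. With so few libraries it cannot decide whether these INK4 genes fell by different amounts.

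CDKN3 lies on the plus strand of chromosome 14 (bases 54863567 to 54886936). It had 1748, 1455 and 1398 normalized counts with p21 OFF and 726, 799 and 786 with p21 ON. The lowest p21 OFF library was 598 normalized counts above the highest p21 ON library, and p21 OFF replicate 1 was again the highest. On the log2 scale it changed by -0.99 ± 0.08 (SE, limma adjusted p = 3.99e-08), the largest fall among the members and rank 160 from the bottom among the 13255 genes tested. Set against CDK2, a kinase it acts on, CDKN3 had 0.709 to 0.883 counts per CDK2 count with p21 OFF. With p21 ON it had 0.402 to 0.451. The libraries of the groups stood apart (p = 0.1 in the exact permutation test, two-sided, which can go no lower). A ratio to CDK1, which fell more than CDKN3 (log2 fold change -1.38), was not formed.

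**Figure D3:**
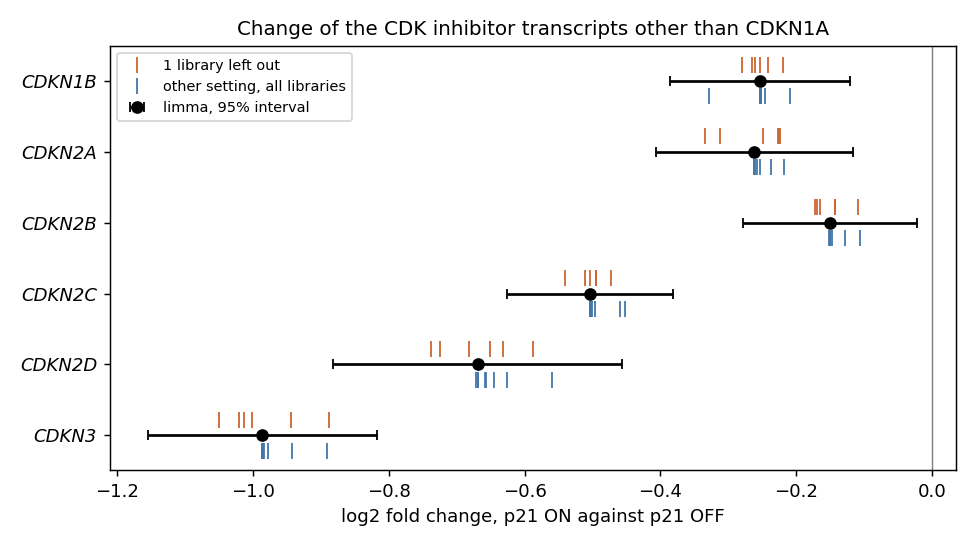
Log2 fold change, p21 ON against p21 OFF, of 6 CDK inhibitor genes (black point and bar, limma estimate and 95% interval). Orange ticks are fits with 1 library left out and blue ticks other settings on all libraries, and every tick lies below 0.

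The study took its cell cycle lists from an earlier meta-analysis and not from these libraries. The 4 members in the low-stringency G2/M list had log2 fold changes of -0.99 (CDKN3), -0.67 (CDKN2D), -0.50 (CDKN2C) and -0.25 (CDKN1B), while CDKN2A and CDKN2B, which are in no cell cycle list, had -0.26 and -0.15. The median over the 7 tested members, the induced CDKN1A included, was -0.26, beside 0.0056 over all genes tested. With p21 OFF replicate 1 the highest of its group for CDKN1B, CDKN2A, CDKN2C, CDKN2D and CDKN3, the falls were recomputed without it. The falls of these genes were then all smaller. Their log2 fold changes were -0.89 (CDKN3), -0.59 (CDKN2D), -0.495 (CDKN2C), -0.22 (CDKN2A) and -0.22 (CDKN1B), and each was still called. CDKN2B, for which that library was the lowest of its group, changed by -0.17 and was called too, so 6 members were called lower. Leaving out any other library gave 4 or 5.

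Compared per length, the INK4 genes CDKN2A and CDKN2C had the highest levels of the members before induction, while CDKN2B and CDKN2D ranked lower. With lengths from all annotated exons, the p21 OFF levels in normalized counts per kb were 1765 ± 111 for CDKN2A, 1651 ± 18.0 for CDKN2C, 839 ± 103 for CDKN3, 505 ± 25.9 for CDKN2B and 423 ± 28.2 for CDKN1A. CDKN2D followed with 202 ± 21.6, CDKN1B with 144 ± 6.21 and CDKN1C with 3.50 ± 2.18 (SD, n = 3 for each). CDKN2A and CDKN2C overlapped in their libraries (1643 to 1857 and 1633 to 1670 per kb) and so did not differ beyond their spread. Lengths of the canonical transcript left 4 of the 8 members at the same place. They set CDKN2A (7011 ± 439) above CDKN2C (5009 ± 54.7), and placed CDKN1A, CDKN1B and CDKN2B close together at 598 ± 39.9, 552 ± 23.8 and 524 ± 26.9 per kb, with neighboring ranges that overlapped. The levels of CDKN2A and CDKN1B depend most on this choice, because their annotated exons sum to 3885 and 9255 bases and their canonical transcripts to 978 and 2411.

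After induction, CDKN1A had the highest level of the inhibitors by either length, vector reads included. Measured by annotated exons it made up 73.0 to 75.9% of the CIP/KIP level per kb with p21 OFF and 99.1 to 99.2% with p21 ON. With canonical transcripts its share was 50.4 to 54.3% and 97.6 to 97.9%. These levels use the length of the cells' own gene. The length of the vector transcript is not known here, so the p21 ON shares of CDKN1A rest on a length that need not apply. By annotated exons, the summed level of the INK4 genes went from 4123 ± 141 to 3221 ± 192 normalized counts per kb (SD, n = 3 each). By canonical transcripts it went from 12758 ± 482 to 9997 ± 693 (SD, n = 3 each). Within the sum by annotated exons the share of CDKN2A was 41.4 to 43.8% with p21 OFF and 44.5 to 47.2% with p21 ON. By canonical transcripts it was 53.3 to 55.9% and 57.4 to 59.8%. By either length the libraries of the groups did not overlap in this share (exact two-sided permutation test, p = 0.1 for each).

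**Figure D4:**
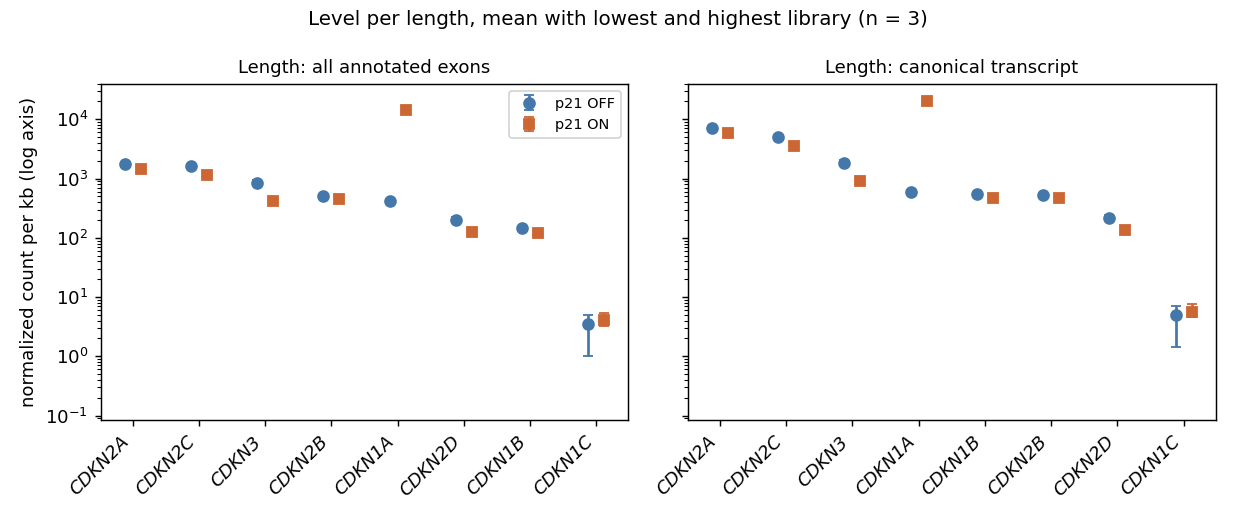
Normalized count per kb on a log axis for the 8 CDK inhibitor genes, ordered by their p21 OFF level, with all annotated exons as the length (left) or the canonical transcript (right); points are means of 3 libraries and bars reach the lowest and highest library. CDKN2A and CDKN2C lead with p21 OFF, CDKN1A leads with p21 ON, and CDKN1C lies far below the rest. The CDKN1A counts with p21 ON include vector reads, divided by the length of the cells' own gene.

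The cyclins and kinases that these inhibitors bind moved in both directions. Of 13 genes, 11 were tested (CCND2 and CCNA1 were at or near 0), 5 were called higher and 4 lower, beside 10.5% and 12.7% of all genes, with a median log2 fold change of -0.09. The 4 that fell encode cyclins A and B and CDK1, a kinase that both cyclins bind. CCNA2 (cyclin A) changed by -1.47 on the log2 scale, CCNB1 and CCNB2 (cyclin B) by -1.39 and -1.38, and CDK1 by -1.38 (limma adjusted p = 8.38e-11, 1.00e-10, 1.92e-10 and 2.51e-10). CCNE2, a partner of CDK2, rose by 0.81 (limma adjusted p = 9.15e-07). The other 4 called higher, named after their values were seen, were CCND1 (log2 fold change 0.74) and CCND3 (0.24), which encode D-type cyclins, their kinase CDK6 (0.39), and CCNE1 (0.73). CDK4 and CDK2 were not called, with log2 fold changes of -0.13 (95% interval -0.27 to 0.0046) and -0.09 (-0.22 to 0.03). Of the kinases that INK4 proteins bind, CDK6 thus rose and CDK4 was not called, while 3 INK4 transcripts fell. Mean p21 OFF normalized counts were 444 for CDK6 and 3582 for CDK4.

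A list of 14 genes held subunits of ubiquitin ligases linked to the turnover of CIP/KIP proteins, with activators and the cofactor PCNA. It was not sorted by whether a gene speeds or slows this turnover. Of these genes 5 were called lower and 0 higher by limma, beside 12.7% and 10.5% of all genes. Their median log2 fold change was -0.12. At an unadjusted p under 0.05 the numbers were 7 lower and 0 higher, and edgeR and DESeq2 also called 0 higher. CDC20, an activator of the anaphase-promoting complex that targets p21 in mitosis, fell by 1.55 on the log2 scale, and CKS1B, the cofactor with which SKP2 recognizes p27, fell by 1.34 (limma adjusted p = 8.38e-11 and 3.86e-07). FZR1, the other activator, changed by -0.42, RBX1 by -0.38 and SKP1 by -0.27, all called lower. SKP2 itself was not called, with a log2 fold change of 0.12 and a 95% interval from -0.02 to 0.26. Without p21 ON replicate 1 or without p21 ON replicate 3 the genes called lower numbered 3, and without p21 OFF replicate 1 they numbered 7 and 1 was called higher.

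Of 22 transcription regulators with known roles at these promoters, 3 were called higher and 4 lower, beside 10.5% and 12.7% of all genes, and their median log2 fold change was 0.02. Such counts lie near the shares of all genes, so they are no result about the regulators as a group. ID1, which holds back ETS factors at the p16 promoter, fell by 0.59 on the log2 scale, and ETS2, such a factor, fell by 0.33 (limma adjusted p = 0.000369 and 0.000761). TBX2, a repressor of ARF and p21, rose by 0.55 (adjusted p = 0.00373), and E2F1 rose by 0.22 (adjusted p = 0.0181). ZBTB17, which encodes MIZ1, an activator of CDKN1A and CDKN2B, stood at -0.19 (limma adjusted p = 0.0228). MYC, its inhibitor, was not called (log2 fold change -0.10, 95% interval -0.22 to 0.02). The genes called lower were 2 under scaling by library size alone, with a replicate block, and without p21 OFF replicate 2 or any 1 of the p21 ON libraries, and the genes called higher were 1 without p21 ON replicate 3.

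**Figure D5:**
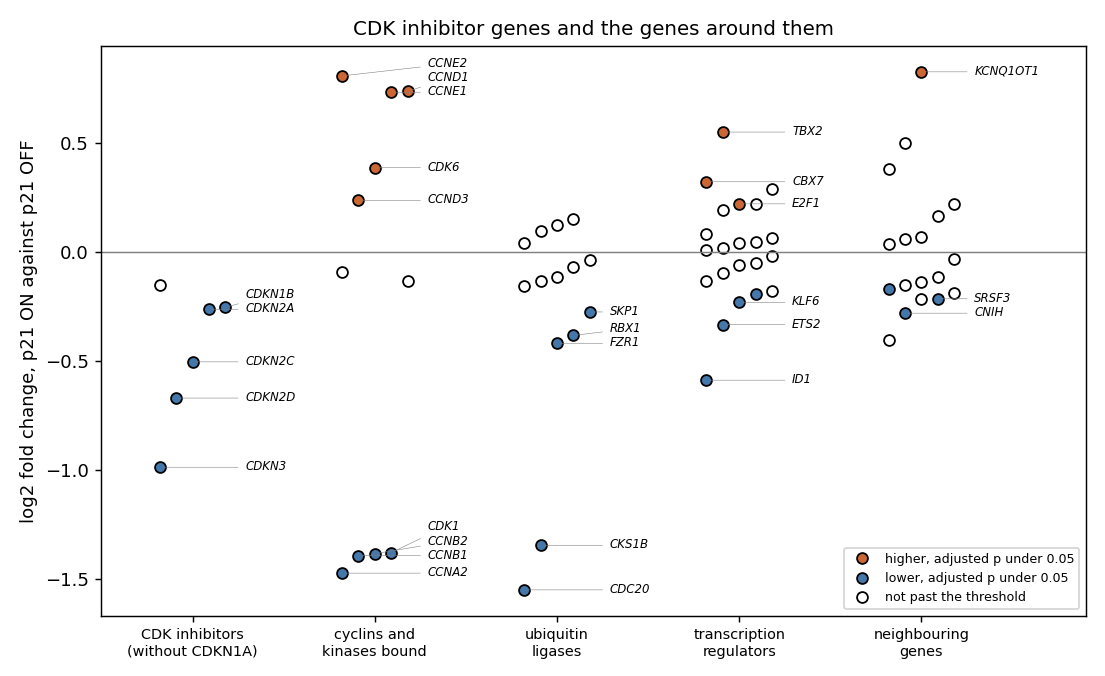
Log2 fold change, p21 ON against p21 OFF, of the tested CDK inhibitor genes other than CDKN1A and of 4 lists of related genes (1 point a gene; orange higher and blue lower at an adjusted p under 0.05 in limma, white not past it). Cyclin A and B genes, CDK1, CDC20 and CKS1B fell most, and the D and E cyclins lie above 0.

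Genes beside the inhibitors give values that hold no vector reads. Of 24 symbols, 19 were in the table and 18 were tested, 1 was called higher and 3 lower, beside 10.5% and 12.7% of all genes, and their median log2 fold change was -0.07. These shares are near those of all genes, so the counts are no result about the neighbors. At the CDKN2A and CDKN2B locus, the antisense RNA CDKN2B-AS1 (ANRIL) had 150.7, 147 and 150.05 normalized counts with p21 OFF and 175, 161 and 187 with p21 ON, above p21 OFF in every library where CDKN2A and CDKN2B were below it. Its log2 fold change of 0.22 did not pass the test (95% interval -0.0020 to 0.44, limma adjusted p = 0.14). MTAP, a further neighbor, stood at 0.17 on the same scale (limma adjusted p = 0.0749). Exons of CDKN2A and CDKN2B-AS1 overlap over 593 bases on opposite strands.

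KCNQ1OT1, the noncoding RNA of the imprinted domain that holds CDKN1C, rose from 41.4, 42.2 and 44.3 to 85.0, 65.8 and 79.8 normalized counts, or 0.83 ± 0.16 on the log2 scale (SE, limma adjusted p = 0.0014). CDKN1C itself held 2 to 17 reads a library. CNIH (listed now as CNIH1), beside CDKN3, changed by -0.28 on the log2 scale, SRSF3, beside CDKN1A, by -0.21, and KRI1, beside CDKN2D, by -0.17, all called lower (limma adjusted p = 0.0136, 0.025 and 0.0481). None of these 3 was called without p21 ON replicate 1 or without p21 ON replicate 3. The 95% interval of CNIH, from -0.44 to -0.12, did not reach that of CDKN3, from -1.15 to -0.82.

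Over the 6 libraries, the genes whose log2 values correlated best with CDKN1A, among 11391 genes with a mean of at least 50, were KLF11 (Pearson r = 0.999), EOMES (0.999) and RHBDL3 (0.998). With CDKN2C they were MCOLN1 (0.998), MXD3 (0.998) and RAD18 (0.997), and with CDKN3 they were H2AFZ (0.999), EMG1 (0.998) and TUBA1A (0.998). These values are a description over 6 libraries in 2 groups, which any gene that differs between the groups with a small spread will approach.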

How the data were processed

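RNA sequencing of 6 libraries was analysed. The authors prepared stranded mRNA libraries, mapped single-end reads to hg19 with STAR, counted them per gene with HTSeq and divided the counts by DESeq2 size factors. The values as deposited are thus a signal of 0 or above, normalized per library. Tool versions and the strand setting are not given in the sources used here. In every library 100% of values were whole multiples of 1 step (tolerance 0.01 reads), which gave the reads behind them. Replicates differed by more than sampling noise (chi-square per gene 2.71 to 9.26, where sampling alone gives about 1). The pairs that held p21 OFF replicate 1 gave 8.50 and 9.26, and all other pairs 2.71 to 3.98.

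Groups were taken from the sample titles. The main test was limma 3.58.1 (R 4.3.3) with a trend on log2(normalized count + 1), with no covariates; it covered 13255 genes, those whose mean reached 10. Alternatives were edgeR 4.0.16 (quasi-likelihood, TMM) and DESeq2 1.42.0 on whole reads, limma after library-size or TMM scaling, pseudocounts of 0.1 and 10, no filter, a mean of at least 50, a replicate block, and fits that omitted 1 library at a time. A fit with a length trend taken out was added after seeing the data. Over 11401 genes the log2 fold change correlated with exonic length (Spearman correlation 0.28), so longer genes tended to have higher values. edgeR called 1401 genes higher and 1647 lower. The limma code was tested on simulated data. The members and lists were chosen with earlier results of these data known. All members are described; in each list the called genes with the 5 lowest adjusted p-values are named, and for CDKN1A, CDKN2C and CDKN3 the 3 best correlated genes. Positions, overlaps and lengths are from GENCODE release 44 lifted to GRCh37. CNIH and CNIH1 are symbols of 1 gene, found here as CNIH, and DINOL, PANDAR, RAB44 and CDKN2A-AS1 were not matched. The result of 1 osteoblast marker is not reported here.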

Additional observations from a re-analysis of the deposited data

How the results depend on the processing

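The 7 tested members were refitted under 16 alternatives each, and of the 112 comparisons 109 kept direction and side of the threshold, 2 lost a call (CDKN2A, given above), 1 gained one (CDKN2B) and 0 reversed. CDKN1A, CDKN1B, CDKN2C, CDKN2D and CDKN3 were called in all 16, with ranges of 5.06 to 5.16, -0.33 to -0.21, -0.54 to -0.45, -0.74 to -0.56 and -1.05 to -0.89. The members called lower numbered 5 under every alternative on all libraries and 4 to 6 with 1 library left out. Same-numbered libraries of the groups did not deviate together (correlations -0.057, -0.025 and -0.048), so the numbers were not taken as pairs. The replicate block left 1 member higher and 5 lower, and moved the transcription regulators called lower from 4 to 2.

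Under scaling by library size alone, the median log2 fold change of all genes was 0.05, beside 0.0056 in the main fit. In that setting 2 transcription regulators were lower, and 3 neighboring genes were higher and 1 lower. With the length trend taken out, 1 ubiquitin ligase gene was higher, and the members had log2 fold changes of -0.89 (CDKN3), -0.56 (CDKN2D), -0.45 (CDKN2C), -0.24 (CDKN2A) and -0.33 (CDKN1B), all called. With 1 library left out, ubiquitin ligase genes called higher numbered 0 to 1 and lower 3 to 7, transcription regulators 1 to 3 and 2 to 4, neighboring genes 1 to 2 and 0 to 3, and all genes 695 to 1486 and 887 to 1660. Cyclins and kinases called higher numbered 4 without p21 OFF replicate 3 or without p21 ON replicate 3, and 5 in every other fit. For these changes the cause was not tested. CDKN1C rested on 2 to 17 reads a library and CDKN2D on 152 to 381.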
